A study of Mus musculus with 6 samples.

Results

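NF-kB is a family of dimeric transcription factors that switch on genes of inflammation, adhesion and cell survival. Here 10 genes of this system were followed, out of 49315 genes in the count table: 4 subunit genes (Nfkb1, Nfkb2, Rela and Relb), the inhibitor genes Nfkbia and Tnfaip3, and the target genes Birc3, Icam1, Vcam1 and Il6. They were chosen by symbol, and all 10 were found in the table. RNA sequencing compared TKO mouse ovarian cancer cells lacking MNRR1 (KO) with TKO cells in which MNRR1 is intact (WT), with 3 libraries of each. TKO stands for triple knockout, so every library carries the alleles of that line, which the labels do not name. All KO libraries carry a single clone name, so loss of MNRR1 and other traits of that clone cannot be told apart. The labels give no treatment and no time point. Nothing in them shows whether replicates came from separate cultures, so p-values measure the spread between these libraries, which may be technical.

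In resting cells, NF-kB dimers are held in the cytoplasm by inhibitor proteins of the IkB family, of which Nfkbia encodes the best known member. Signals from receptors of tumour necrosis factor, interleukin 1 or microbial products activate the IkB kinase complex, which marks IkB for destruction and frees dimers of Rela and Nfkb1 products. A slower, noncanonical route runs through the kinase encoded by Map3k14 and acts on Relb and Nfkb2 products. Nfkb2, Relb, Nfkbia, Tnfaip3 and Birc3 are themselves known targets of NF-kB, so the system holds feedback loops. In tumour cells the pathway is known for driving cytokines and chemokines.

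Promoter sequences are shown first, for the genes that have one. NF-kB dimers bind kappaB sites, and the letters GGANTTTCC, which cover many such sites without their flanks, were searched on both strands. The letters were chosen after the promoters and the expression changes had been seen. RefSeq windows of GRCm38.p6, reaching from 250 bases before to 50 bases after a gene's start, were found for 7 of the 10 genes and not for Nfkb1, Relb and Vcam1. The letters stood in the windows of 5 genes (Nfkb2, Nfkbia, Tnfaip3, Icam1 and Il6) and not in those of Rela and Birc3. Over all 27025 genes with windows, 1.45% held them in at least 1 window (1.25% of 32851 windows). Those of Nfkbia, Icam1 and Il6 are printed because they carry the inhibitor, adhesion and cytokine results, each as the 250 bases before the start, 5′ to 3′ on the gene's strand, with matches to GGANTTTCC or its reverse complement in capitals. Nfkbia lies on the minus strand at chr12:55492648-55492897, Icam1 on the plus strand at chr9:21015690-21015939, and Il6 on the plus strand at chr5:30012864-30013113.
Nfkbia: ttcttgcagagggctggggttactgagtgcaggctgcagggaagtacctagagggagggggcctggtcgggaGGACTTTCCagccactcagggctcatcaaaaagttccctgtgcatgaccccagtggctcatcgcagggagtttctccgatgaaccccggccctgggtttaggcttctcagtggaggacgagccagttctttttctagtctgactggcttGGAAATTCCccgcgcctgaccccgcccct
Icam1: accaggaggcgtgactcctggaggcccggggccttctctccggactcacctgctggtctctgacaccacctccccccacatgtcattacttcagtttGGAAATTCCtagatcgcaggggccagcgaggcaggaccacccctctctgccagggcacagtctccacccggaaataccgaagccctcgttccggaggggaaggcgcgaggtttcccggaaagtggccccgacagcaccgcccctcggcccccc
Il6: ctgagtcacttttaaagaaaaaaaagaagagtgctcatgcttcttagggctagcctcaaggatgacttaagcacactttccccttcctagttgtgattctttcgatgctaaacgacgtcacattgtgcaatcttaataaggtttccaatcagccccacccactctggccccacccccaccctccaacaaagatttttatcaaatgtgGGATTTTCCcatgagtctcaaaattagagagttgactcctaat

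The matches in Nfkb2 and Tnfaip3 are given as 29-base excerpts with the same capitals. That of Nfkb2 (chr19:46305696-46305724, plus strand) falls in each of 2 overlapping windows, and that of Tnfaip3 (chr10:19015416-19015444, minus strand) begins 24 bases before the start.
Nfkb2: ggtattttcgGGACTTTCCtaagcagcac
Tnfaip3: tcacgtgactGGAATTTCCatcggaaatc

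The kappaB consensus was searched as the 10 letters GGGRNNYYCC. R is A or G, Y is C or T, and N is any base. The motif stood in the windows of Nfkb2, Nfkbia, Tnfaip3 and Il6, and of 9.55% of all genes with windows (8.46% of windows). It overlaps GGANTTTCC in Nfkb2, Nfkbia and Il6. A match of letters is a description and does not show binding.

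Some facts of the libraries bear on every value below. Total counts ran from 33226463 to 40983999 per library. Levels are given as CPM, counts scaled to a common library size with TMM normalization factors, as mean ± SD over 3 libraries where a spread is shown. Chchd2, the gene of MNRR1, averaged 17.1 ± 0.499 CPM in the KO clone against 352 ± 13.7 CPM in WT cells (SD, n = 3 per genotype), so it was low in every library labelled KO. Of 10 genes listed for ovarian tumour epithelium, Epcam was at 2.28 CPM in WT, and Cdh1 and Pax8 were below 1 CPM in each genotype. Keratin 8 (Krt8, 480 CPM), Wt1 (719 CPM) and the mesothelial gene Upk3b (2213 CPM) were abundant in WT. The summed level of 9 fibroblast and mesothelial markers was 2879 to 3199 CPM in KO against 4181 to 4534 CPM in WT libraries, and that of the 10 tumour epithelium markers was 2251 to 2381 against 2776 to 2931 CPM. Most of the first sum was Upk3b and Lrrn4, and single markers moved apart: Col1a1 fell from 134 to 10.3 CPM, Thy1 had 69 to 92 counts per WT library and 0 in each KO library, and Pdgfrb rose from 1.08 to 4.75 CPM. In the epithelial list Krt7, Msln, Krt8 and Krt18 were lower (log2 changes of -1.88, -1.38, -0.76 and -0.55). Krt19 and Muc16 were higher (0.44 and 0.46). The other tested genes of that list were Epcam (0.09), Wt1 (-0.09) and Cdh1 (-0.29). The part of these shifts in the results was not tested.

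WT replicates 1 and 2 stand apart from WT replicate 3 in transcripts of the pathway itself. The gene of tumour necrosis factor, Tnf, had 23, 65 and 0 counts in WT replicates 1 to 3 and 0 in each KO library. Il1b, which encodes interleukin 1 beta, had 67, 172 and 2 counts in WT and 0 in each KO library. Lyz2, a lysozyme gene of macrophages, had 61, 146 and 10 counts in WT libraries and 1, 13 and 6 in the KO clone, and the chemokine gene Cxcl2 had 58, 123 and 0 counts in WT and 0 in each KO library. These 4 genes were picked after their values were seen. Over the whole list of 10 leukocyte markers, 7 averaged under 1 CPM, Cd3e was at 0 throughout, and the summed level was 8.55, 14.3 and 6.60 CPM in WT replicates 1 to 3 against 4.67 to 5.83 CPM in KO libraries. Besides Lyz2, the markers Csf1r (log2 change -1.57, adjusted p = 7.49e-04) and Cd68 (-0.68, adjusted p = 0.00489) fell, and with WT replicate 3 alone Csf1r passed (adjusted p = 0.0441) and Cd68 did not (0.179). Cd14 averaged 1.52 CPM in KO and 1.09 CPM in WT and did not pass. The part of these transcripts in the results was not tested. Each result on the 10 genes is therefore given also with WT replicate 3 as the sole WT library.

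**Figure D1:**
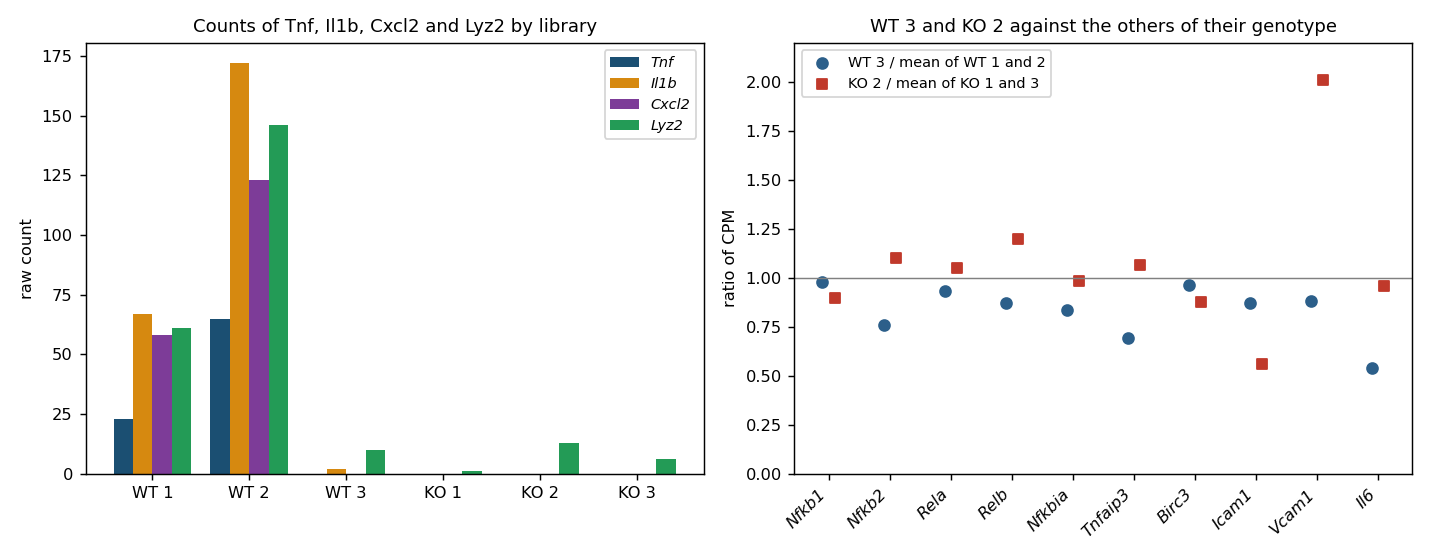
Left, raw counts (y axis) of Tnf, Il1b, Cxcl2 and Lyz2 in each library (x axis). Right, for each of the 10 genes (x axis), the CPM of WT replicate 3 over the mean of WT replicates 1 and 2 (circles) and of KO replicate 2 over the mean of KO replicates 1 and 3 (squares). The 4 genes are highest in WT replicates 1 and 2, Il6 has the lowest WT ratio (0.541) and Vcam1 the highest KO ratio (2.01).

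Of the 10 genes, 7 fell in the KO clone, 0 rose and 3 did not pass the test, where a gene passes at an adjusted p under 0.05 in edgeR's quasi-likelihood test with Benjamini-Hochberg adjustment over 16033 genes. The median log2 change of the 10 genes was -1.25, against 0.01 for all genes tested. Of all genes tested, 27.8% were lower and 27.8% were higher in KO (55.7% in either direction), so a call by itself is common in this comparison. A call with a fall of at least 2-fold was met by 5 of the 10 genes (Relb, Tnfaip3, Icam1, Vcam1 and Il6) and by 6.01% of tested genes. KO and WT libraries did not overlap for 8 of the 10 genes, each time with KO lower, and among all tested genes 31.9% were without overlap and lower in KO and 32.1% without overlap and higher. Icam1 passed the filter on low counts only through the WT libraries, and without it 6 of 9 genes were lower. DESeq2 and limma voom each called 7 lower and 0 higher, and with WT replicate 3 alone the counts were again 7 and 0, where 11.9% of genes were lower and 12.4% higher. That fit was chosen after seeing the data. In bulk libraries, fewer cells that express a gene and less RNA per cell cannot be told apart.

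**Figure D2:**
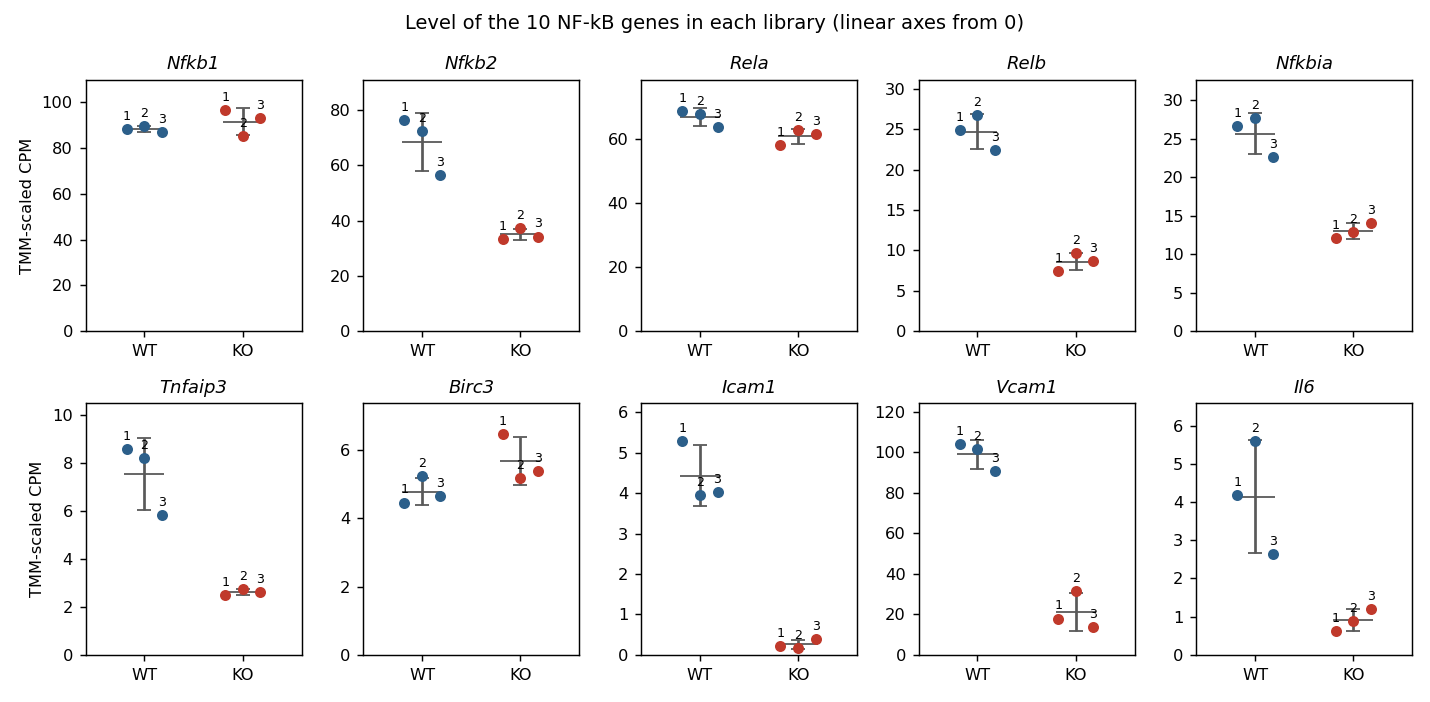
Level of each gene in TMM-scaled CPM (y axes, linear from 0) in the WT and KO libraries (x axis). Points are libraries numbered by replicate, the horizontal line is the mean and the bars are ± 1 SD. The KO points lie apart from and below the WT points for all but Nfkb1 and Birc3.

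Among the subunits, Nfkb2 and Relb of the noncanonical dimer fell, and Rela and Nfkb1 of the classical dimer did not pass the test. Rela (ENSMUSG00000024927, chr19:5637483-5648130 of GRCm38, plus strand) encodes the main activating subunit. It was at 58.2, 62.8 and 61.4 CPM in KO replicates 1 to 3 and at 68.8, 67.9 and 63.8 CPM in WT replicates 1 to 3. The KO values lay just below the WT values without overlap, as in 64% of all tested genes in either direction. The log2 change of -0.14 (SE 0.06) missed the threshold (adjusted p = 0.0672), passed it without KO replicate 2 (-0.16, adjusted p = 0.0164) and was -0.015 when libraries were scaled by their totals. Against WT replicate 3 alone it was -0.07 (adjusted p = 0.648).

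Nfkb1 (ENSMUSG00000028163, chr3:135584655-135691547, minus strand) encodes the precursor whose processed form pairs with Rela. It was at 96.4, 85.0 and 93.1 CPM in KO replicates 1 to 3 and at 88.2, 89.6 and 87.0 CPM in WT replicates 1 to 3, and the groups overlapped. The log2 change was 0.05 (SE 0.06, adjusted p = 0.479), and 0.07 (adjusted p = 0.671) with WT replicate 3 alone. It passed only with scaling by library totals, at 0.17 (adjusted p = 0.0364). Rel, a further activating subunit not among the 10 genes, averaged 30.0 ± 0.880 CPM in the KO clone and 31.8 ± 1.56 CPM in WT cells (adjusted p = 0.297).

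Nfkb2 (ENSMUSG00000025225, chr19:46304320-46312385, plus strand) encodes the precursor processed in the noncanonical route. It was at 33.5, 37.3 and 34.3 CPM in KO replicates 1 to 3 and at 76.4, 72.4 and 56.7 CPM in WT replicates 1 to 3. All KO libraries were below all WT libraries, and WT replicate 3 was the lowest of its group. The KO mean was 51.1% of the WT mean, a log2 change of -0.97 (SE 0.10, adjusted p = 3.35e-05), and with WT replicate 3 alone the change was -0.70 (adjusted p = 0.00479). The gene shares 299 exonic bases with Psd on the other strand, which was also lower (log2 change -1.01) and was looked up for this overlap, and without a stated strand setting reads of the shared stretch cannot be assigned with certainty.

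Relb (ENSMUSG00000002983, chr7:19606217-19629438, minus strand) encodes the partner of the Nfkb2 product. It was at 7.50, 9.68 and 8.64 CPM in KO replicates 1 to 3 and at 24.9, 26.7 and 22.4 CPM in WT replicates 1 to 3, with no overlap. The KO mean was 34.9% of the WT mean, a log2 change of -1.52 (SE 0.11, adjusted p = 1.68e-06). With WT replicate 3 as the sole WT library it was -1.38 (adjusted p = 0.00184).

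Both inhibitor genes fell. Nfkbia (ENSMUSG00000021025, chr12:55489410-55492647, minus strand), whose protein IkB alpha traps dimers in the cytoplasm, was at 12.1, 12.9 and 14.1 CPM in KO replicates 1 to 3 and at 26.7, 27.7 and 22.7 CPM in WT replicates 1 to 3. No library of 1 genotype reached the range of the other. The KO mean was 50.7% of the WT mean, a log2 change of -0.98 (SE 0.10, adjusted p = 1.41e-05), which was -0.80 (adjusted p = 0.00742) with WT replicate 3 alone.

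Tnfaip3 (ENSMUSG00000019850, chr10:19000910-19015657, minus strand) encodes a ubiquitin-editing enzyme that shuts off signalling from receptors to the IkB kinase. It was at 2.49, 2.73 and 2.63 CPM in KO replicates 1 to 3 and at 8.55, 8.21 and 5.82 CPM in WT replicates 1 to 3. The KO libraries were close to each other, and WT replicate 3 was at 0.695 times the mean of the other WT libraries. The log2 change was -1.52 (SE 0.17, adjusted p = 2.82e-05), and -1.15 (adjusted p = 0.00818) with WT replicate 3 alone.

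Of the 4 target genes, Icam1, Vcam1 and Il6 fell and Birc3 did not pass the test. Birc3 (ENSMUSG00000032000, chr9:7848699-7873186, minus strand) encodes an inhibitor of apoptosis that also acts as a ubiquitin ligase in the pathway. It was at 6.47, 5.18 and 5.39 CPM in KO replicates 1 to 3 and at 4.46, 5.22 and 4.66 CPM in WT replicates 1 to 3. The groups overlapped through KO replicate 2 and WT replicate 2. The log2 change was 0.25 (SE 0.14, adjusted p = 0.151), and 0.28 (adjusted p = 0.391) with WT replicate 3 alone. It passed only with scaling by library totals, at 0.37 (adjusted p = 0.0482).

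Icam1 (ENSMUSG00000037405, chr9:21015985-21028817, plus strand) encodes an adhesion molecule that binds integrins of leukocytes. KO replicates 1 to 3 gave 8, 7 and 15 counts (0.229, 0.172 and 0.387 CPM), and WT replicates 1 to 3 gave 185, 134 and 160 counts (5.29, 3.96 and 4.03 CPM). The KO libraries were far below the WT libraries, and WT replicate 3 lay within the range of the other WT libraries, unlike the order seen for Nfkb2, Tnfaip3 and Il6. The KO mean was 5.93% of the WT mean, a log2 change of -4.06 (SE 0.28, adjusted p = 1.25e-06). With WT replicate 3 alone the change was -3.93 (adjusted p = 6.07e-04). Few counts support the KO level, and omission of single libraries moved the change between -4.45 and -3.81. The antisense gene Gm47079, which shares 511 exonic bases with Icam1, had between 7 and 26 counts per library.

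Vcam1 (ENSMUSG00000027962, chr3:116109949-116129688, minus strand) encodes the vascular cell adhesion molecule, a ligand of integrin alpha 4 beta 1 that mesothelial cells also carry. It was at 17.98, 31.8 and 13.6 CPM in KO replicates 1 to 3 and at 104, 102 and 90.9 CPM in WT replicates 1 to 3. The groups did not overlap, but the KO libraries were uneven, with KO replicate 2 the highest. The KO mean was 21.3% of the WT mean, a log2 change of -2.22 (SE 0.32, adjusted p = 0.00205). The change was -2.65 without KO replicate 2 and -2.11 (adjusted p = 0.0102) with WT replicate 3 as the sole WT library. Over 8 endothelial markers the summed level was 20.4 to 32.0 CPM in KO and 25.7 to 26.9 CPM in WT libraries, 6 averaged under 1 CPM, Cdh5, Emcn and Vwf had at most 6 counts in any library, and Tie1 had 0. Most of that sum was Esam (22.2 CPM in KO, 20.3 CPM in WT). Kdr fell from 5.35 to 1.13 CPM (adjusted p = 1.69e-06) and Tek rose from 0.287 to 1.68 CPM (adjusted p = 9.58e-05). The part of Kdr and Tek in the result on Vcam1 was not tested.

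Il6 (ENSMUSG00000025746, chr5:30013114-30019981, plus strand) encodes the cytokine interleukin 6. It was at 0.630, 0.884 and 1.21 CPM in KO replicates 1 to 3 and at 4.18, 5.61 and 2.64 CPM in WT replicates 1 to 3. The lowest WT library stayed above the highest KO library, and the WT libraries followed the same order as Tnf, Il1b and Lyz2. The KO mean was 21.9% of the WT mean, a log2 change of -2.17 (SE 0.31, adjusted p = 1.97e-04). With WT replicate 3 alone, which had 105 counts of Il6 beside 0 of Tnf and 2 of Il1b, the KO mean was 34.4% of that library, and the log2 change was -1.53 (adjusted p = 0.0191).

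**Figure D3:**
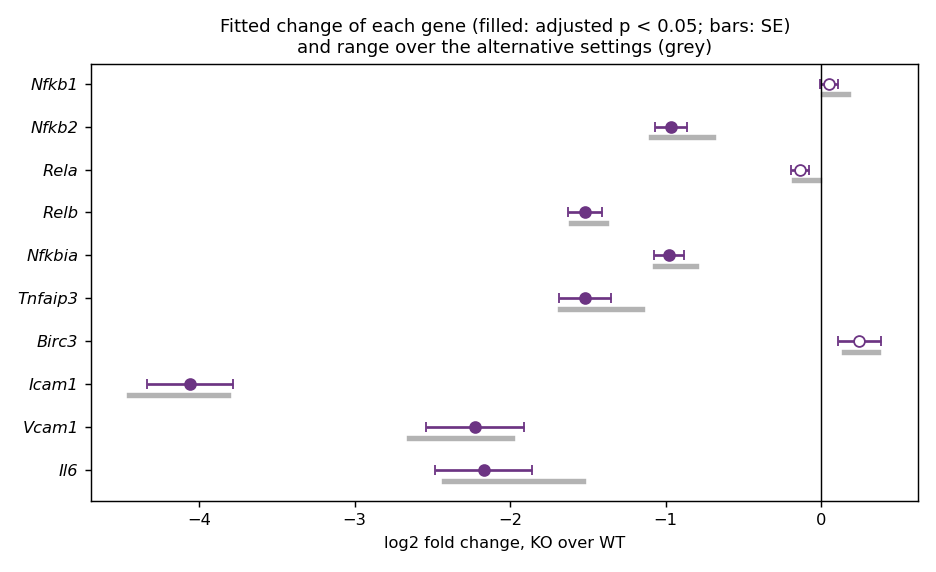
Fitted log2 fold change of KO over WT (x axis) for each gene (y axis), with bars of ± 1 SE. Filled circles passed an adjusted p of 0.05, and grey bars span the values over the other settings tried. Grey bars of the 7 filled genes all lie below 0, with Icam1 farthest at -4.45 to -3.81.

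The order of levels within a genotype was compared per kilobase of exon, over all annotated exons of a gene. That length was 12061 bases for Nfkb1, 8870 for Vcam1 and 3072 for Rela, and the order depends on it. In CPM without length, WT means were 99.0 for Vcam1, 88.3 for Nfkb1, 68.5 for Nfkb2 and 66.8 for Rela. In WT libraries Rela was highest at 21.8 ± 0.874 CPM per kilobase, followed by Nfkbia (16.0 ± 1.66), Nfkb2 (14.9 ± 2.28), Vcam1 (11.2 ± 0.802), Nfkb1 (7.32 ± 0.108) and Relb (6.35 ± 0.551). Nfkbia and Nfkb2 overlapped in their libraries. Il6 (1.71 ± 0.610), Tnfaip3 (1.04 ± 0.206), Icam1 (1.02 ± 0.172) and Birc3 (0.955 ± 0.0790) came last, and each overlapped with the next. In KO libraries Rela was again highest at 19.8 ± 0.779 CPM per kilobase, and Nfkbia (8.09), Nfkb2 (7.64) and Nfkb1 (7.59) followed with overlapping values. Vcam1 (2.38) and Relb (2.21) overlapped as well. Birc3 (1.13) ranked above Il6 (0.374), Tnfaip3 (0.362) and Icam1 (0.0602) in KO libraries, with the values of Il6 and Tnfaip3 overlapping.

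Other genes of the pathway were taken from a list of 111 genes arranged by role, of which 87 were tested. Of these, 37 fell and 21 rose (42.5% and 24.1%, where 27.8% of all tested genes were called in each direction), with a median log2 change of -0.18. With WT replicate 3 as the sole WT library, fewer listed genes passed in each direction. That fit tested 17553 genes, with some of the list not among the 87, so its shares are not set beside these. Of the 37 that fell, 19 were target genes. The list was drawn up with earlier results of these data known.

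**Figure D4:**
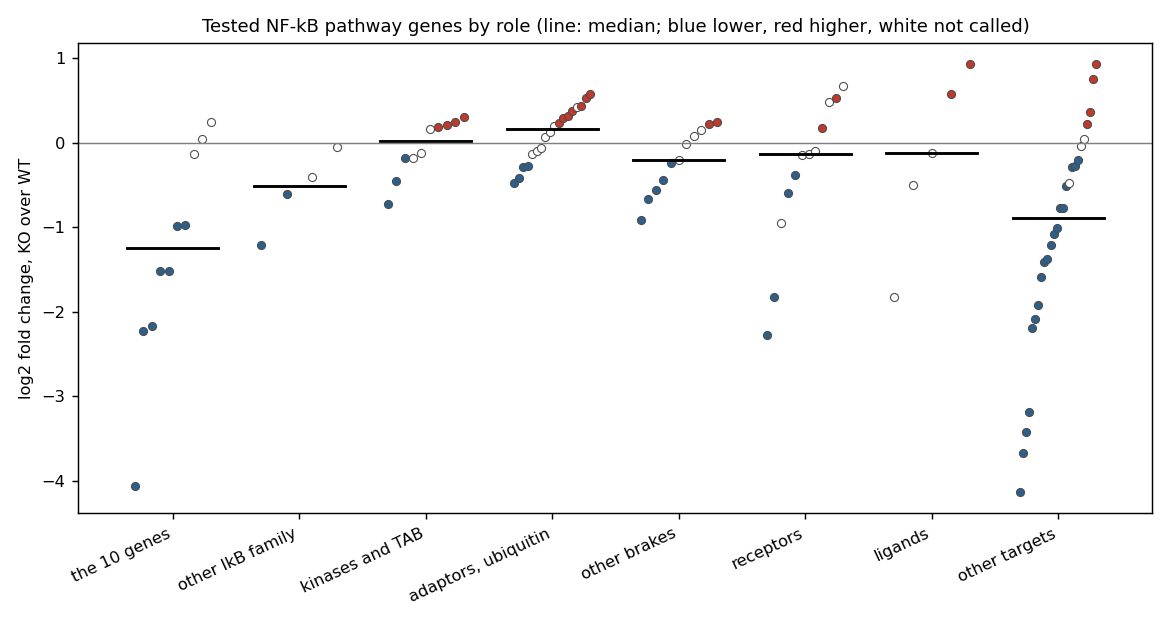
Fitted log2 fold change of KO over WT (y axis) for the tested genes of each role (x axis), with the 10 genes at the left. Each circle is a gene (blue lower, red higher, white not called) and the line is the median. The medians are -1.25 for the 10 genes, 0.02 for kinases, 0.17 for adaptors and -0.89 for other targets.

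Among receptors, 4 of 12 tested genes fell and 2 rose (33.3% and 16.7%, beside 27.8% of all tested genes each way). Tnfrsf12a, the receptor of the cytokine TWEAK, which feeds the noncanonical route, was at 25.2, 44.4 and 21.5 CPM in KO replicates 1 to 3 and at 153, 157 and 133 CPM in WT replicates 1 to 3. Its log2 change was -2.28 (SE 0.29, adjusted p = 0.00129). KO replicate 2 was the highest KO library, at 1.90 times the mean of the others, as for Vcam1 (2.01 times). A ratio of at least 1.8 was met by 324 of the 16033 genes. Ltbr, the lymphotoxin beta receptor of the same route, changed by -0.59, and Il1r1, the signalling receptor of interleukin 1, by -1.82, while the endotoxin receptor gene Tlr4 rose by 0.53, a call not kept with WT replicate 3 alone (adjusted p = 0.0741). The receptors of tumour necrosis factor, Tnfrsf1a and Tnfrsf1b, were at log2 changes of -0.09 and -0.14 and did not pass. They were named after their values were seen.

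Most ligand genes were scarce. Of 11, 5 were tested, 2 rose and 0 fell (40% and 0%, beside 27.8% of all tested genes each way). Il33, named after its values were seen, averaged 14.3 CPM in KO and 15.5 CPM in WT and did not pass (adjusted p = 0.463). Tnfsf11, which encodes RANKL, rose by 0.93 on the log2 scale, from 1.61 ± 0.173 to 3.09 ± 0.384 CPM, and missed the threshold with WT replicate 3 alone (adjusted p = 0.066). Tnfsf12, which encodes TWEAK, rose by 0.58 (adjusted p = 0.0482). It missed the threshold when KO replicate 1 (adjusted p = 0.0935), KO replicate 3 (0.211), WT replicate 1 (0.151) or WT replicate 2 (0.144) was omitted. Nor did Tnfsf12 pass in limma voom (adjusted p = 0.0787) or with WT replicate 3 alone (log2 change 0.32). Tnf and Il1b did not pass the filter, with 23 and 65 counts of Tnf and 67 and 172 of Il1b in WT replicates 1 and 2. The other libraries held at most 2 counts of either gene. Il1a, named after its values were seen, had 20, 11 and 13 counts in KO and 39, 95 and 11 counts in WT replicates 1 to 3. Its log2 change was -1.82 (adjusted p = 0.0629) and turned to 0.48 (adjusted p = 0.633) with WT replicate 3 alone.

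Of 10 kinase and TAB genes, 3 fell and 4 rose (30% and 40%, beside 27.8% of all tested genes each way). No change reached 2-fold. Map3k14, whose kinase starts the noncanonical route, fell by 0.73 (SE 0.12), from 11.4 ± 0.0641 to 6.90 ± 0.973 CPM. Of the IkB kinase complex, the catalytic subunit gene Chuk fell by 0.45 and the other catalytic subunit gene Ikbkb rose by 0.25. Ikbkg, the regulatory subunit gene, was at 0.16 and missed the threshold (adjusted p = 0.0517), which it passed without KO replicate 2 (0.0114) or KO replicate 3 (0.0488). Tab1, an activator of the kinase upstream of the complex, rose by 0.30, which missed the threshold on omission of WT replicate 1 (adjusted p = 0.057), of WT replicate 3 (0.102) and of KO replicate 3 (0.0614). Nor did Tab1 pass with WT replicate 3 as the sole WT library (log2 change 0.44). With WT replicate 3 alone the call of Map3k14 held (adjusted p = 0.0315), and those of Chuk (0.0597) and Ikbkb (0.0888) did not.

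Adaptor and ubiquitin genes went both ways, with 4 of 18 lower and 7 higher (22.2% and 38.9%, beside 27.8% of all tested genes each way). The paracaspase gene Malt1 rose by 0.57, Tradd, the adaptor of the tumour necrosis factor receptor, by 0.53, and Sharpin, a part of the linear ubiquitin ligase, by 0.44. Irak2, a kinase of interleukin 1 and Toll-like receptor signalling, fell by 0.47. Malt1 and Tradd kept their calls with WT replicate 3 alone, and Sharpin (adjusted p = 0.052) and Irak2 (0.119) did not.

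Other brakes of the pathway were lower in 5 of 11 tested genes and higher in 2. These shares were 45.5% and 18.2%, beside 27.8% of all tested genes each way. Cyld, a deubiquitinase that removes chains from pathway proteins, was at 46.2, 49.5 and 41.6 CPM in KO replicates 1 to 3 and at 88.0, 93.2 and 77.7 CPM in WT replicates 1 to 3. It fell by 0.91 (SE 0.08, adjusted p = 7.11e-06). Otulin, which cleaves linear ubiquitin chains, fell by 0.56, and Zc3h12a, whose product degrades cytokine transcripts such as Il6, by 0.66 (adjusted p = 0.0879 with WT replicate 3 alone). Pdlim2, which promotes removal of Rela, fell by 0.44, which did not pass when KO replicate 1 (adjusted p = 0.0894) or WT replicate 3 (0.0915) was omitted. Nor did Pdlim2 pass with scaling by library totals (0.0812) or with WT replicate 3 alone (log2 change -0.62). In the IkB family, the nuclear cofactor gene Bcl3 fell by 1.21 and Nfkbib, which encodes IkB beta, by 0.61 (adjusted p = 0.0713 with WT replicate 3 alone), while Nfkbie and Nfkbiz, the other tested members, did not pass and were named after their values were seen.

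Of 26 tested target genes beside the 10, 19 fell and 4 rose (73.1% and 15.4%), with a median log2 change of -0.89. Of all tested genes, 27.8% were called in each direction. The target list was drawn up with earlier results of these data known, so its share of falls is not independent support. Cxcl10 passed the filter only through WT libraries, and without it 18 of 25 were lower. The growth factor gene Csf1 fell from 670.0 ± 24.8 to 222.8 ± 14.5 CPM, and the acute phase gene Saa3 from 35.9 ± 2.75 to 7.89 ± 0.767 CPM, both chosen after their values were seen. The chemokine genes Ccl7, Ccl2 and Ccl20 fell, with log2 changes of -4.13, -3.67 and -3.42, and their calls held with WT replicate 3 alone (adjusted p = 0.00113, 0.00139 and 0.00225). Ccl7 was at -4.81 without KO replicate 2. Cxcl10, at 1.89, 3.01 and 0.479 CPM in WT replicates 1 to 3 and 0.189 ± 0.113 CPM in KO, had a log2 change of -3.19 (adjusted p = 0.00436). It did not pass with WT replicate 3 alone (-1.31, adjusted p = 0.215), nor when KO replicate 2 was omitted (adjusted p = 0.0747). Targets that rose were Cxcl5 (0.93), the survival gene Cflar (0.76), Irf1 (0.36) and Tnfaip2 (0.23), named after their values were seen. Cxcl5 and Cflar kept their calls with WT replicate 3 alone, and Irf1 (adjusted p = 0.222) and Tnfaip2 (0.12) did not.

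The promoter letters were also read across all tested genes, as a description. GGANTTTCC had been chosen after the promoters and the expression changes were seen, so its shares are not independent support. Among 166 tested genes outside the 10 whose window holds GGANTTTCC, 41% were lower and 22.3% higher in KO, against 31.3% and 29.9% of 10608 genes whose windows do not hold it. The shares for the kappaB consensus were 32.5% lower and 31.9% higher of 1317 genes, close to the 31.3% and 29.4% of genes without it. The difference between motifs was not tested.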

How the data were processed

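The deposited values were raw read counts per Ensembl gene in 6 libraries, whole numbers that the authors had not normalized. The submitters' processing notes name STAR 2.5.2b, Trimmomatic 0.36, Subread 1.5.2, DESeq2 and the build GRCm38 (mm10). For strandedness, multi-mapping and annotation release, the settings used in counting were not given in the sources used here. Positions, symbols and exon lengths came from GENCODE M21 (GRCm38), which held 49056 of the 49315 gene IDs and lacked 259.

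The genotypes were compared in edgeR 4.0.16 (R 4.3.3): filterByExpr at a minimum count of 10, TMM scaling, a robust quasi-likelihood fit with genotype as the only term, and Benjamini-Hochberg adjustment over 16033 genes. Promoter windows came from RefSeq (GRCm38.p6). A standard error is the log2 change divided by the root of its F statistic. Where a library has 0 counts, its upper limit is 3 counts (95% level), 0.0737 to 0.0886 CPM depending on the library; this covers counting error only. DESeq2 1.42.0, limma 3.58.1, other scalings and filters, the replicate block and omission of libraries were alternatives. Leaving out WT replicates 1 and 2 together was added after seeing the data.

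The genes and lists were chosen with earlier results of these data known. Named were the 10 genes, Chchd2, Rel, Tnf and the IkB kinase genes whatever their values, and up to 4 called genes of at least 1 CPM per role by size of change. Marker genes, overlapping genes and genes marked in the text were named after their values were seen. Samples were grouped by their titles.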

Additional observations from a re-analysis of the deposited data

How the results depend on the processing

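The falls of Nfkb2, Relb, Nfkbia, Tnfaip3, Icam1, Vcam1 and Il6 passed the threshold in every alternative tried, and no gene of the 10 changed direction in any. Scaling by library totals raised the number of the 10 genes called higher from 0 to 2, Nfkb1 (log2 change 0.17) and Birc3 (0.37). It moved the median of all genes from 0.01 to 0.13, and 5771 of all 16033 genes were called higher and 3294 lower. Omission of single libraries gave log2 changes of -0.17 to -0.10 for Rela, which passed without KO replicate 2. A test against a 1.5-fold change called 1271 of all 16033 genes higher and 1006 lower. Of the other pathway genes it called 1 higher and 17 lower, in place of 21 and 37. Leaving out WT replicates 1 and 2 together gave 4 and 22. That fit has 1 WT library, which is assumed to vary like the KO libraries, and fewer samples. The labels give equal set numbers to equal replicate numbers of both genotypes and do not say what a set is. Deviations from the group means correlated at -0.0590, 0.0513 and 0.0283 across genes for numbers 1 to 3. Not every library correlated best with its own number. With 3 libraries per genotype, these values cannot decide whether equal numbers mark pairs. With the replicate number as a block, 7 of the 10 genes were lower and 0 higher, and 40 and 22 of the other pathway genes. Of all 16033 genes, that fit called 4466 lower and 4412 higher. Depth limits Icam1 most, with 7 to 15 counts per KO library.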

Other observations

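Receptor and signalling genes of interleukin 6 and related cytokines were also measured. Of 8 genes of the interleukin 6 receptor axis, 4 fell and 3 rose in edgeR's quasi-likelihood test with Benjamini-Hochberg adjustment, where 27.8% of tested genes were called in each direction. Il6st, the signal-transducing receptor chain, fell by 0.75 on the log2 scale, from 293.0 ± 5.13 to 174.4 ± 2.15 CPM (SD, n = 3 each). The oncostatin M receptor gene Osmr fell by 1.36, from 64.2 ± 1.02 to 25.1 ± 1.06 CPM, and the ligand-binding chain gene Il6ra by 0.53. Socs3, a feedback inhibitor induced by STAT3, was at 149, 208 and 143 CPM in KO replicates 1 to 3 and at 80.9, 80.8 and 103 CPM in WT replicates 1 to 3, and rose by 0.92 (SE 0.16, adjusted p = 0.00192). Stat3 itself, named after its values were seen, rose by 0.29, a call that was lost with WT replicate 3 as the sole WT library (adjusted p = 0.113).

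Of 6 integrin genes whose products bind Icam1 or Vcam1, 2 were tested. Itgb1 fell by 0.38, from 694.8 ± 4.45 to 535.6 ± 25.5 CPM, and Itgal rose by 0.59, from 12.7 ± 0.616 to 19.1 ± 2.29 CPM. Itga4, named after its values were seen, had 10, 3 and 0 counts in KO and 1 count in each WT library. Itgam, Itgb2 and Itgb7, named in the same way, were not tested either.

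By the distance between centred log2 CPM values over the 6 libraries, the genes nearest to Vcam1 were Ptx3, Cubn and Krt80, at distances of 0.213, 0.239 and 0.264. Ptx3, which encodes a secreted pattern recognition protein, averaged 13.1 CPM in the KO clone and 65.1 CPM in WT cells. Nearest to Icam1 were Adam12, Pcdh11x and Apobec3 (0.848 to 0.905), and nearest to Il6 were Igfbp7, Adgrf5 and Il23a (0.589 to 0.660). Those nearest to Icam1 passed the filter only through the WT libraries, with 2 to 9 counts per KO library. All of these genes were picked for the shared pattern, so their falls follow from the choice.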
